A study of Mus musculus with 173 samples.

Results

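The 8 transcripts described here, with ENSMUST00000030480 as the anchor, form a graded series of correlations across the kidneys of an F2 mouse cross. The 8 were listed by identifier: the anchor itself, ENSMUST00000106268, ENSMUST00000074829, ENSMUST00000039204, ENSMUST00000101655, ENSMUST00000105586, ENSMUST00000030942 and ENSMUST00000030935. They are 8 of the 37264 transcripts in the deposited table, which held 34406 distinct measurements once transcripts with identical values on every array were kept once. Of these, 17110 had a mean above the median transcript mean of 7.25 on the log2 scale, and all 8 were among them. The list was drawn up with the Spearman correlations and the discrete classes of these same animals known. Those correlations, the classes and everything computed from them are therefore given as descriptions, with errors over animals and no test.

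Kidney RNA was measured in 173 male F2 mice, 13 weeks of age, from an intercross of the inbred strains MRL/MpJ (the female founders) and SM/J (the male founders). The animals formed 1 group with no treatment, were kept alike, were caged alone for 3 days and fasted for 4 hours before tissue was taken, and belonged to a cross of 371 F2 animals. Each kidney was measured on 1 array. Genotypes were not used here, so no class described below could be assigned to an MRL/MpJ or an SM/J allele.

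In an F2 animal each chromosome pair carries segments from either founder strain, and at any one locus the animal is homozygous for one strain, heterozygous, or homozygous for the other, in the ratio 1:2:1. Where a nearby sequence difference alters a transcript's level, or the binding of its array probes, the transcript falls into 3 classes that follow that genotype. Neighbouring loci on a chromosome are inherited together unless a meiotic crossover falls between them, so agreement between linked loci decays with genetic distance. The array value does not separate a change in RNA from a change in probe binding. The identifiers are not paired here with gene symbols, functions or chromosome positions (0 of the 8 matched), so nothing is said of what the transcripts encode or of where they lie, and the labelled tissue was not checked against marker genes.

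Values over the whole table ran from 4.65 to 14.1, array means from 7.48 to 7.60, and each array correlated with the median array at 0.985 or above (median 0.997). The 5 arrays least like the median array (0.985 to 0.992) were those of mice 103, 123, 50, 29 and 47. Leaving these 5 out kept all 7 correlations with the anchor within their 95% intervals.

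The anchor varied most over animals, with a lowest value of 6.91, a median of 10.54 and a highest of 11.75. No animal lay between 7.82 and 9.25, a gap of 1.43 that left 48 animals below and 125 above. The low animals were thus apart from all others, while the upper animals ran on without a comparable gap. A fit of 3 Gaussian classes in the shares 1:2:1 with a common SD put the anchor's low, middle and high levels at 7.36 ± 0.028, 10.56 ± 0.025 and 11.38 ± 0.043 (jackknife SE, n = 173). The step from low to middle was 9.21-fold and that from middle to high 1.76-fold. With an SD for each class, the high class lay lower, at 11.09, with an SD of 0.51, and the distance between outer classes was 3.73 in place of 4.02.

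ENSMUST00000106268 had a lowest value of 5.76, a median of 7.41 and a highest of 8.48. Its 38 lowest animals were set off by a gap from 6.64 to 6.86. Its class levels were 6.09 ± 0.030, 7.40 ± 0.024 and 8.06 ± 0.033, a 3.91-fold distance between the outer classes. ENSMUST00000074829 ran from 6.27 through a median of 7.44 to 8.36, with 52 animals below a gap from 6.93 to 7.13. Its class levels were 6.61 ± 0.018, 7.45 ± 0.015 and 8.00 ± 0.030, or 2.63-fold between the outer classes. In both transcripts, as in the anchor, the low class was the one that stood apart.

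ENSMUST00000039204 ran from 7.27 through 8.25 to 8.84, with 36 animals below a gap from 7.83 to 8.08. Its class levels were 7.55 ± 0.021, 8.25 ± 0.0094 and 8.67 ± 0.014, a distance of 2.17-fold with a within-class SD of 0.095. That was the smallest within-class SD of the 8. ENSMUST00000101655 ran from 7.50 through 8.78 to 10.09, and its class levels were 8.17 ± 0.042, 8.75 ± 0.036 and 9.76 ± 0.024. No animal lay between 9.22 and 9.49, a gap of 0.267 with 120 animals below and 53 above. Here the high class was the one set apart: the step from middle to high was 2.01-fold and that from low to middle 1.49-fold, the reverse of the other 7.

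ENSMUST00000105586 ran from 7.24 through 8.43 to 9.01, with class levels of 7.89 ± 0.023, 8.45 ± 0.016 and 8.81 ± 0.019. ENSMUST00000030942 ran from 7.96 through 8.82 to 9.44, with class levels of 8.24 ± 0.024, 8.80 ± 0.015 and 9.18 ± 0.020. With at least 10 animals on each side, the widest gap was 0.087 in ENSMUST00000105586 and 0.051 in ENSMUST00000030942, the narrowest of the 8. The outer classes lay 1.90-fold apart in ENSMUST00000105586 and 1.92-fold in ENSMUST00000030942, the smallest distances of the 8. ENSMUST00000030935 ran from 7.17 through 8.21 to 8.98, with 44 animals below a gap from 7.59 to 7.78. Its class levels were 7.43 ± 0.017, 8.20 ± 0.021 and 8.64 ± 0.028, or 2.31-fold between the outer classes.

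**Figure D1:**
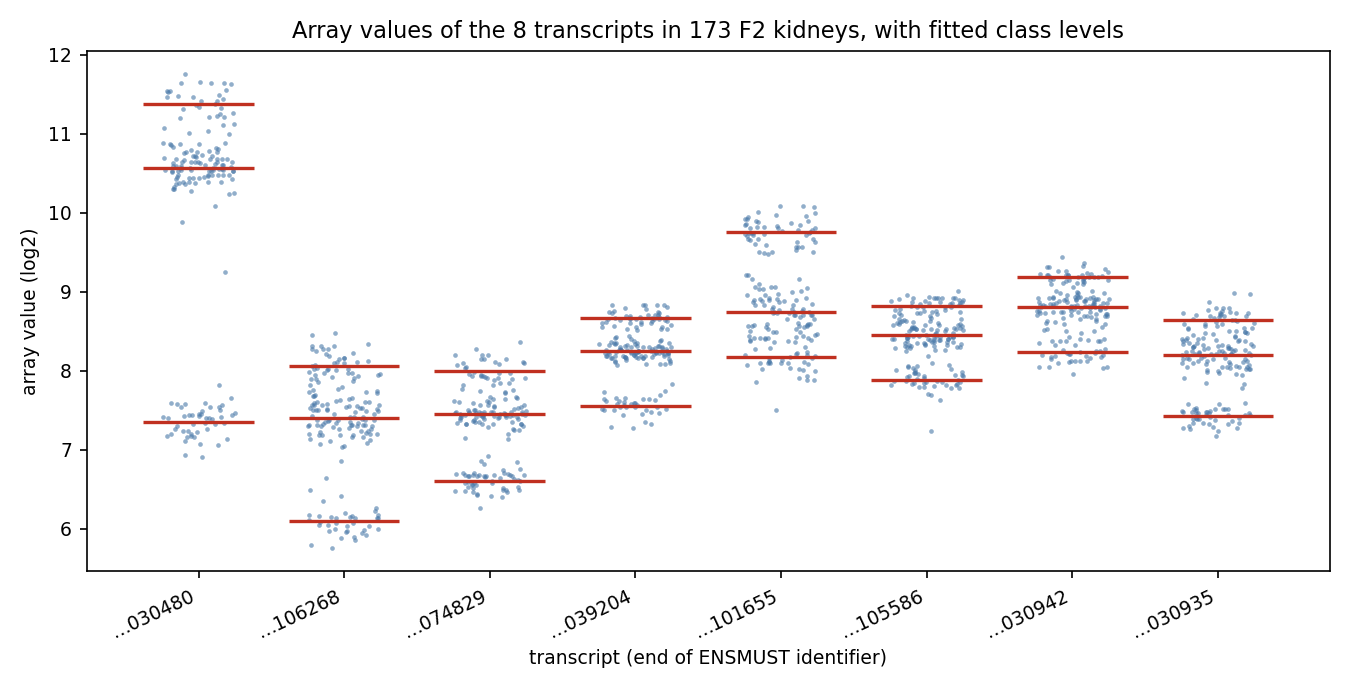
Array values (log2) of the 8 transcripts in 173 F2 kidneys, 1 point per animal, with red lines at the fitted low, middle and high class levels; transcripts are in the order described in the text and the horizontal scatter within each has no meaning. The low animals of ENSMUST00000030480 lie below 7.82 with none up to 9.25, whereas in ENSMUST00000101655 the high class, at 9.76, stands apart.

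All 8 transcripts were called discrete by a Bayesian information criterion (BIC) lead of more than 10 over the best of 3 continuous distributions, where 211 of 17110 measurements were called (1.23%). Because the list was drawn from such calls, nothing is read from the count. Of the 211, 206 followed 1:2:1 classes. The BIC leads of the 1:2:1 model ran from 24.1 for ENSMUST00000105586 to 261 for the anchor, and all 8 also passed a lead of 20. The outer classes were 18.5 within-class SDs apart in the anchor, the third-widest separation of the 206, and 7.46 SDs apart in ENSMUST00000105586, which ranked 101. In the anchor, 3.20 of the 4.02 log2 units between the outer classes lay between low and middle. The median distance between outer classes was 1.30 over the 8 and 0.92 over the 206 (log2).

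The middle class lay above the midpoint of the outer classes in 7 of the 8 on the log2 scale and below it in ENSMUST00000101655; over the 206 it lay above in 198 and below in 8. On the linear scale the middle class of most members was close to the midpoint. The departure, in log2 units, was between -0.016 and 0.042 for ENSMUST00000106268, ENSMUST00000074829, ENSMUST00000039204, ENSMUST00000105586, ENSMUST00000030942 and ENSMUST00000030935. It was 0.094 for the anchor and -0.42 for ENSMUST00000101655. These departures rest on the levels fitted with a common SD. With an SD for each class, the anchor's high level was 11.09 in place of 11.38. The midpoint is then lower and the anchor's departure larger, by an amount that was not computed.

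Class shares were also fitted freely. The middle class then held between 40.3% of the animals (ENSMUST00000101655) and 54.0% (the anchor). The share of the class that went with the anchor's low class was between 23.3% (ENSMUST00000030942) and 30.9% (ENSMUST00000101655). For the class that went with the anchor's high class, the share was 18.2% in the anchor, 21.9% in ENSMUST00000106268, 20.8% in ENSMUST00000074829 and 20.8% in ENSMUST00000039204, and between 24.6% and 28.7% in the other 4. The first 4 transcripts thus had fewer animals in that outer class than the last 4, as point estimates.

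The direction relative to the anchor was mixed. Only ENSMUST00000074829 was higher in animals with a high anchor; the other 6 were lower in them. Among the 28 pairs of the 8 transcripts, 16 correlated positively and 12 negatively, and the sign of all 28 was the one given by the directions of both members relative to the anchor. ENSMUST00000030480 and ENSMUST00000074829 therefore formed one direction and the other 6 the opposite one.

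The absolute Spearman correlation with the anchor fell in a graded way along the list. It was strongest for ENSMUST00000106268, at rho = -0.76 ± 0.040 (jackknife SE, n = 173), followed by ENSMUST00000074829 at 0.72 ± 0.038. ENSMUST00000039204 had -0.57 ± 0.056 and ENSMUST00000101655 had -0.46 ± 0.063. The last 3, ENSMUST00000105586 at -0.32 ± 0.070, ENSMUST00000030942 at -0.30 ± 0.070 and ENSMUST00000030935 at -0.21 ± 0.073, were the weakest. Pearson's r was -0.68, 0.73, -0.52, -0.47, -0.36, -0.36 and -0.28 in the same order, which exchanged the 2 nearest transcripts, and also exchanged ENSMUST00000105586 and ENSMUST00000030942. Without the 2 animals farthest from the anchor's median, rho was -0.77, 0.72, -0.61, -0.49, -0.35, -0.32 and -0.23.

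The steps between neighbours in this order are given with their jackknife intervals. Because the transcripts are ordered by these same correlations, each step is positive by construction, and the intervals describe its spread over animals only. From ENSMUST00000106268 to ENSMUST00000074829 the absolute correlation differed by 0.036, with a 95% interval of -0.036 to 0.108, so these neighbours did not differ beyond their spread. Nor did ENSMUST00000105586 and ENSMUST00000030942, which differed by 0.021 (-0.053 to 0.095). The other 4 steps were 0.151 (0.046 to 0.255) to ENSMUST00000039204, 0.116 (0.020 to 0.212) to ENSMUST00000101655, 0.132 (0.020 to 0.243) to ENSMUST00000105586, and 0.089 (0.0064 to 0.171) to ENSMUST00000030935.

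**Figure D2:**
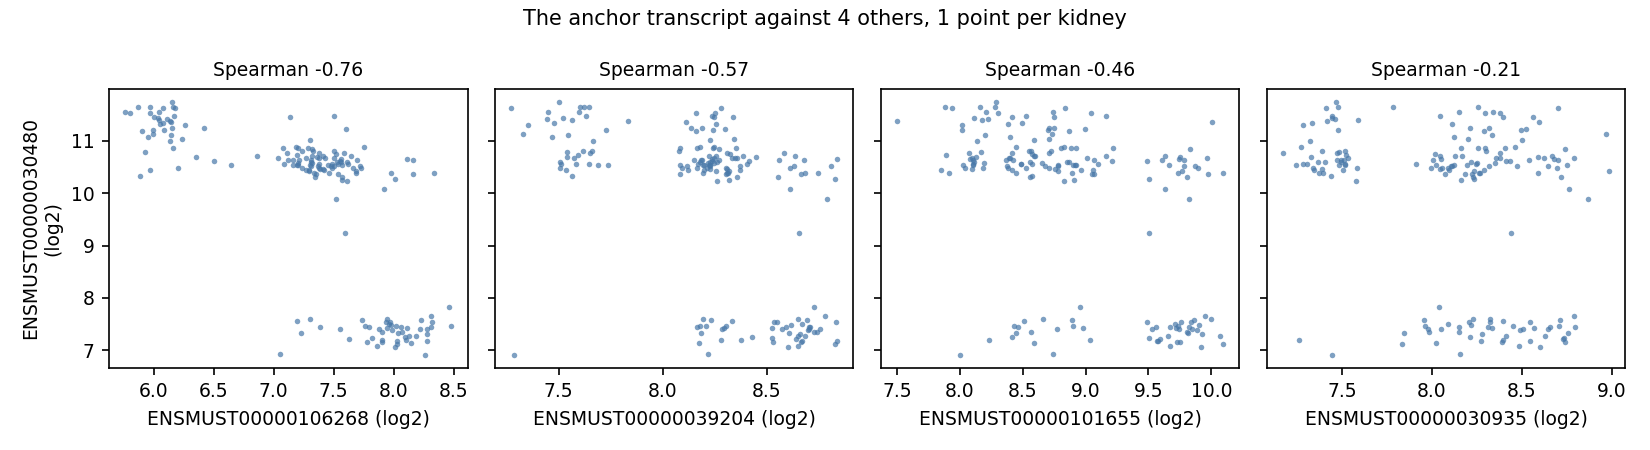
ENSMUST00000030480 (log2, vertical axis) against 4 of the other transcripts (log2, horizontal axes), 1 point per kidney, in order of falling absolute Spearman correlation (-0.76, -0.57, -0.46 and -0.21). For ENSMUST00000106268 most animals sit in 3 clusters along the falling diagonal, and for ENSMUST00000030935 all combinations of clusters are filled.

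An absolute correlation above 0.5 with the anchor was found for 116 of the other 17109 measurements (0.678%), 57 of them positive and 59 negative. Of the 7 other members, 3 passed it, ENSMUST00000106268, ENSMUST00000074829 and ENSMUST00000039204; since the list was chosen by such correlations, nothing is read from that count. Around the other members, the number of measurements above 0.5 was 156 for ENSMUST00000106268, 122 for ENSMUST00000074829 and 136 for ENSMUST00000039204. It was 57 for ENSMUST00000101655 and 44, 37 and 35 for the last 3. The first 4 transcripts thus had more correlated measurements in the table than the last 4.

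The members also correlated with broader axes of variation. The second principal component of the measurements, computed without the 8, held 9.60% of the variance and correlated with the anchor at rho = 0.42. Its correlation was -0.53 for ENSMUST00000106268, 0.43 for ENSMUST00000074829 and -0.42 for ENSMUST00000039204. It was -0.30, -0.27, -0.21 and -0.0022 for the last 4 in order. The third component, with 4.49% of the variance, correlated with the members at -0.11, 0.12, -0.19, 0.41, 0.24, 0.23, 0.10 and 0.12 in order. The fourth component, with 3.72% of the variance, correlated with the members at 0.30, -0.26, 0.29, -0.37, -0.36, -0.26, -0.12 and -0.27 in order, and with the mouse number at -0.24. Sizes thus declined from ENSMUST00000106268 on for the second component, with the anchor below ENSMUST00000106268. They were largest at ENSMUST00000039204 for the third component and did not decline along the list for the third or the fourth. Both the second component (rho = -0.33) and the anchor (-0.21) correlated with the mouse number, and the other members did so at 0.22, -0.20, 0.19, 0.18, 0.087, 0.057 and 0.037, so the sizes declined along the list from ENSMUST00000106268 on. Their part in the correlations among members was not tested. With a linear trend over mouse numbers removed, the correlations with the anchor were -0.78, 0.75, -0.55, -0.41, -0.30, -0.30 and -0.21, in the same order. With the first 5 components removed they were -0.61, 0.65, -0.40, -0.27, -0.20, -0.24 and -0.16, with the same signs but smaller sizes. ENSMUST00000074829 was then ahead of ENSMUST00000106268, and ENSMUST00000030942 ahead of ENSMUST00000105586. The measurements outside the list that correlate with the members stayed in the data from which the components were computed.

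Each animal was next given its most probable class in each transcript, turned so that classes that go with the anchor's low class bear the same name. Between the anchor and ENSMUST00000106268, 29 of the 173 animals (16.8%, Wilson 95% interval 11.9 to 23.0) were in different classes. With ENSMUST00000074829 it was 41 animals (23.7%, 18.0 to 30.6), with ENSMUST00000039204 64 (37.0%, 30.2 to 44.4) and with ENSMUST00000101655 78 (45.1%, 37.9 to 52.5). For the last 3, the counts were 95 (54.9%, 47.5 to 62.1), 91 (52.6%, 45.2 to 59.9) and 99 (57.2%, 49.8 to 64.4). As point estimates, the share of animals in disagreement thus rose as the correlation fell, apart from ENSMUST00000105586 and ENSMUST00000030942. The intervals of all transcripts next to each other in this order overlapped.

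A pair of reference levels bounds these shares. If the class of each animal were shared and the classes merely overlapped, the fitted levels and SDs would give between 3.01% and 7.85% of animals in apparent disagreement. If the classes were independent, they would give between 62.3% and 62.5%. Both levels rest on a common SD in each transcript and were not recomputed with an SD for each class. The measured shares, from 16.8% to 57.2%, lay between these levels. Assigned with an SD for each class, the measured shares ran from 19.7% to 59.5%. The transcripts were listed for their correlation with the anchor in the same animals, so nothing is read from the distance to either level. In the animals whose class had a posterior of at least 0.95 in both transcripts (120 to 154 animals), the shares were 15.6, 21.9, 39.0, 47.5, 53.7, 53.8 and 57.0% in order.

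**Figure D3:**
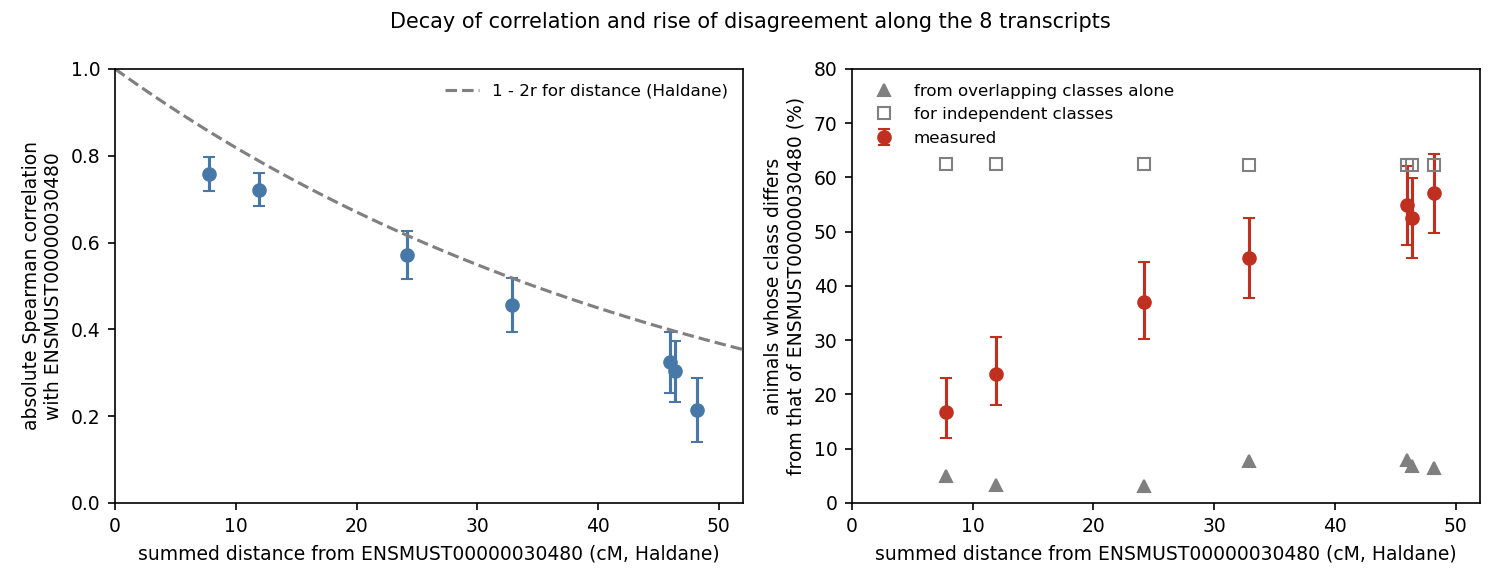
Left, absolute Spearman correlation with ENSMUST00000030480 (± jackknife SE) against the summed distance along the order in centimorgans (Haldane function), with a dashed line at 1 - 2r for that distance. Right, percentage of animals whose class differs from that of ENSMUST00000030480 (red, with Wilson 95% intervals), with grey triangles for disagreement from overlapping classes alone and open squares for independent classes; the measured share climbs from 16.8% to 57.2%.

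Most disagreements were of a single class step, between an outer class and the middle one. Opposite outer classes were seen in 0, 0, 1, 3, 7, 5 and 9 animals in order from ENSMUST00000106268 to ENSMUST00000030935. Of the 48 animals in the anchor's low class, 39 were in the matching class of ENSMUST00000106268, 32 in that of ENSMUST00000039204 and 19 in that of ENSMUST00000030935. Of the 92 in the anchor's middle class, 76, 59 and 43 matched in the same 3 transcripts, and of the 33 in its high class, 29, 18 and 12 did. The loss of agreement was thus seen from all 3 classes of the anchor.

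The same data were expressed as a recombination-like fraction, the share of gametes in which the alleles behind a pair of transcripts would have to be recombined if each transcript followed 1 locus. It was estimated from the 9 genotype pairs of an F2 with each transcript's own class levels and common SD. Overlap of classes is taken into account only as far as that SD gives it. With the anchor it was 7.18% (95% profile likelihood interval 4.6 to 10.6) for ENSMUST00000106268 and 10.7% (7.5 to 14.7) for ENSMUST00000074829. It was 20.2% (15.6 to 25.5) for ENSMUST00000039204 and 25.8% (20.4 to 32.0) for ENSMUST00000101655. ENSMUST00000105586 had 33.3% (27.0 to 40.3), ENSMUST00000030942 31.8% (25.7 to 38.8) and ENSMUST00000030935 36.7% (30.1 to 44.0). Unlinked loci would give 50%, and the choice of transcripts by their correlation leaves nothing to be read from the distance to that value. With the first 5 components removed, the fraction for ENSMUST00000106268 went to its lower bound and that for ENSMUST00000074829 to 7.36%, but the fitted middle and high levels of the anchor then coincided, at 10.63 and 10.64. The outer classes of the anchor were 4.88 within-class SDs apart in those values. The middle and high levels of ENSMUST00000039204 also coincided there, at 8.35.

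An order was sought as the shortest path through the fractions of all 28 pairs, over the 20160 distinct orders of the 8. The shortest path ran ENSMUST00000030480, ENSMUST00000106268, ENSMUST00000074829, ENSMUST00000039204, ENSMUST00000101655, ENSMUST00000105586, ENSMUST00000030942, ENSMUST00000030935, the same order as that of the absolute correlation with the anchor. Its fractions summed to 43.8%. The next 5 paths exchanged only the last 3 transcripts, the nearest of them at 44.97%, whereas the best path with another arrangement of the first 5 summed to 50.5%. The likelihood of a chain of all 8 under an F2 model, refitted for 40 orders, was highest with the last 3 reversed. The order above lay 1.85 log10 units lower, and the best order that changed the first 5 lay 15.0 units lower. The arrangement of the last 3 was therefore unresolved, and that of the first 5 was the same by both measures.

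The neighbouring intervals differed in size. From the anchor to ENSMUST00000106268 the fraction was 7.18%, and on to ENSMUST00000074829 it was 4.00% (2.1 to 6.7). The interval to ENSMUST00000039204 was 10.9% (7.7 to 14.8), that to ENSMUST00000101655 8.00% (5.0 to 11.8) and that to ENSMUST00000105586 11.5% (7.7 to 16.1). The last 3 transcripts lay close together: 0.417% (0 to 1.9) separated ENSMUST00000105586 and ENSMUST00000030942, and 1.82% (0.5 to 4.3) separated ENSMUST00000030942 and ENSMUST00000030935. Between ENSMUST00000105586 and ENSMUST00000030942, 16 animals (9.25%) were in different classes, and overlap of the classes alone would give 9.85%. Disagreement between those 2 was thus no more than the overlap of their classes gives.

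Converted with the Haldane function, the 7 intervals summed to 48.2 centimorgans, and the chain of all 8 gave 46.7. The sum of neighbouring intervals predicted a fraction of 30.9% between the ends, and the direct estimate was 36.7% (30.1 to 44.0). Of the 21 pairs that were not neighbours, all 21 had an interval that held the fraction predicted from the neighbours between them. The direct estimate minus the prediction ran from -3.63 to 5.79 percentage points and was above 0 in 15 pairs and below in 6. The pairs share transcripts and animals, so these 21 are not independent. The order was chosen for the smallest sum of neighbouring fractions, and the predictions came from those same fractions. Nothing is therefore read from the count of 21.

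Over all 28 pairs, the absolute correlation ran from 0.21 to 0.88, and 18 exceeded 0.5. It was between 0.67 and 0.88 for neighbours, between 0.54 and 0.80 at 2 steps, and between 0.46 and 0.66 at 3 steps. At 4 steps it was 0.38 to 0.55, at 5 steps 0.32 to 0.35, at 6 steps 0.24 to 0.30, and at 7 steps 0.21. These ranges pool pairs by their number of steps in an order that was itself found from the same 28 pairs. Starting from ENSMUST00000101655, the absolute correlation was 0.657 with ENSMUST00000030942 and 0.659 with ENSMUST00000030935, so it did not fall at that step. The ratio of the absolute correlation to 1 - 2r, where r is the fraction, was between 0.693 and 0.968 (median 0.872). After each animal's class level was subtracted in each transcript, the remaining values correlated between -0.14 and 0.20, with a median absolute rho of 0.051.

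**Figure D4:**
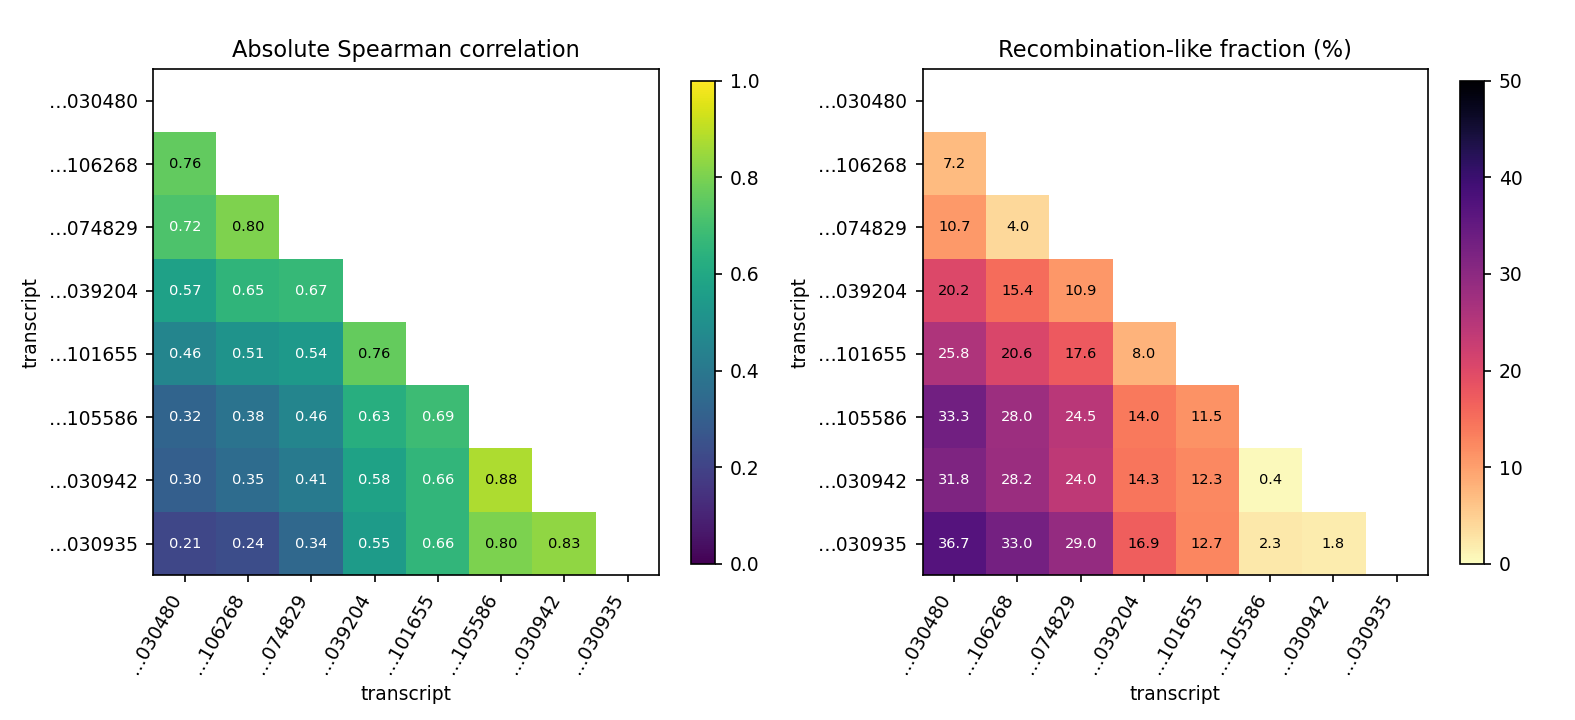
Absolute Spearman correlation (left) and recombination-like fraction in percent (right) for the 28 pairs of the 8 transcripts over 173 animals, in the order described in the text; identifiers are cut to their last 6 digits. Correlation falls away from the diagonal, from 0.88 for ENSMUST00000105586 with ENSMUST00000030942 to 0.21 between the ends, and the last 3 transcripts form a tight corner.

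Read animal by animal, 45 of the 173 (26.0%) were in the same class in all 8 transcripts, 11 of them in the anchor's low class, 25 in its middle class and 9 in its high class. The other 128 (74.0%, Wilson 95% interval 67.0 to 80.0) were in different classes in at least 1 pair. Opposite outer classes within 1 animal were seen in 15 animals (8.67%). In the 48 animals with a posterior of at least 0.95 in all 8 transcripts, 36 (75.0%) had at least 1 disagreement. The first 3 transcripts agreed in 128 animals (74.0%) and the last 3 in 141 (81.5%).

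Going along the order, 68 animals changed class once, 34 changed at 2 places, 22 at 3, 3 at 4 and 1 at 5. There were 219 changes in all, and 3 of them went from one outer class to the other in a single interval. The ends were in different classes in 99 animals, of which 68 had a single change. They were in the same class in 74, of which 29 left that class in between and came back. A single change per animal was thus the commonest pattern.

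A change assigned from the most probable class includes errors of assignment. The expected share of animals put in the wrong class was 0.529% for ENSMUST00000039204, 1.41% for ENSMUST00000074829 and 1.66% for the anchor. It was 3.10% for ENSMUST00000106268, between 4.21% and 5.03% for the last 3 and 6.63% for ENSMUST00000101655. These shares rest on a common SD in each transcript. With an SD for each class, the anchor's middle and high classes lay at 10.57 and 11.09, with SDs of 0.15 and 0.51. The anchor's upper animals were thus placed less surely than the 1.66% gives, and that error was not computed. ENSMUST00000101655 was also the transcript that differed most often from 2 neighbours that matched each other, in 19 animals, against 4 to 8 animals for the other 5 inner transcripts. Where the transcript and both of its neighbours had a posterior of at least 0.95, it was 7 of 93 animals for ENSMUST00000101655 and 0 to 2 for the other 5. The chain, which allows for overlap of the classes, put the mean number of recombined intervals per animal, over both gametes, at 0.849. That is another quantity than the class changes counted above.

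The 68 single changes fell in the 7 intervals as 12, 6, 18, 7, 18, 1 and 6 animals, in order from the anchor. The intervals from ENSMUST00000074829 to ENSMUST00000039204 and from ENSMUST00000101655 to ENSMUST00000105586 thus held 18 each. They also had the largest fractions, 10.9% and 11.5%. Counts and fractions come from the same fitted classes in the same animals, so nothing is read from their match. Counted over all changes, these intervals held 37 and 55, and the interval from ENSMUST00000039204 to ENSMUST00000101655 held 38 with a fraction of 8.00%. The interval between ENSMUST00000105586 and ENSMUST00000030942 held 1 single change and had the smallest fraction.

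**Figure D5:**
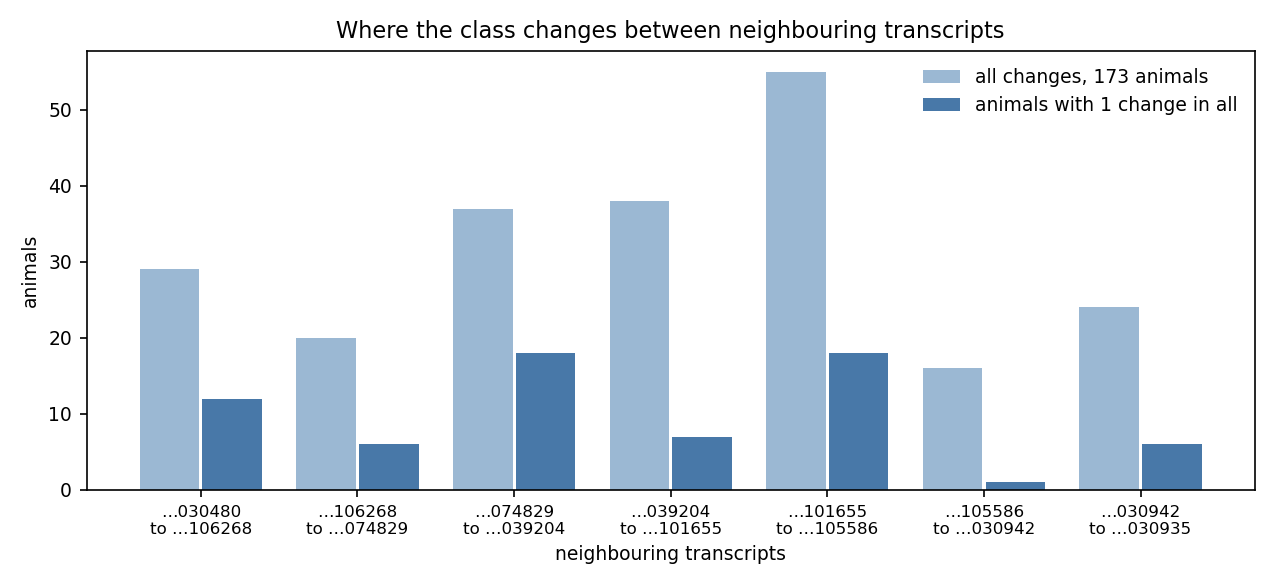
Number of animals (vertical axis) whose class changes between each pair of neighbouring transcripts, for all 173 animals (light bars) and for the 68 animals with a single change along the order (dark bars). The intervals at ENSMUST00000039204 and ENSMUST00000105586 hold 18 single changes each and the one between ENSMUST00000105586 and ENSMUST00000030942 holds 1.

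Measurements outside the list were picked for their correlation with a listed transcript in these same animals. A low fraction with that transcript, and fractions like its own with the others, therefore follow from the choice. They are given as descriptions only. The 5 most like the anchor were ENSMUST00000049095 (rho = -0.82), ENSMUST00000051237 (-0.81), ENSMUST00000102721 (0.80), ENSMUST00000030272 (0.80) and ENSMUST00000102720 (0.79), over 173 animals. All 5 had a higher absolute correlation with the anchor than any listed transcript had. Their outer classes were between 1.48-fold and 1.81-fold apart, with 4.33 to 6.04 within-class SDs between them, so single animals were placed less surely. ENSMUST00000049095 had a recombination-like fraction of 0.569% with the anchor, 5.59% with ENSMUST00000106268, 17.8% with ENSMUST00000039204 and 36.7% with ENSMUST00000030935. Its fractions thus rose along the order as the anchor's did, except from ENSMUST00000105586 (33.4%) to ENSMUST00000030942 (32.7%), where the anchor's fell too. ENSMUST00000051237 had lower fractions than the anchor with ENSMUST00000106268 (1.62%) and with ENSMUST00000074829 (6.50%).

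The nearest measurement was also found for each other member. ENSMUST00000030401 was nearest to ENSMUST00000106268 (rho = -0.85) and ENSMUST00000030742 to ENSMUST00000074829 (0.81). ENSMUST00000097820 followed ENSMUST00000039204 at 0.995, and ENSMUST00000066391 followed ENSMUST00000101655 at 0.993. ENSMUST00000030950 was the nearest to both ENSMUST00000105586 (0.967) and ENSMUST00000030942 (0.878), and ENSMUST00000105626 was nearest to ENSMUST00000030935 (-0.81). Correlations as close as 0.995 also arise when transcripts share probes, and probe content was not used here. ENSMUST00000106538 and ENSMUST00000105799 had values identical on every array to those of ENSMUST00000030480 and ENSMUST00000039204, and were counted with them.

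Of the other measurements called discrete, 15 had an absolute correlation above 0.5 with at least 1 of the 8. By correlation, 7 of them were closest to ENSMUST00000101655, 4 to ENSMUST00000039204, 2 to ENSMUST00000074829, 1 to ENSMUST00000106268, 1 to ENSMUST00000030942 and 0 to the anchor. Counted by correlations above 0.5, which can hold for several members at once, the 15 were linked to the 8 transcripts in order 7, 14, 14, 15, 15, 12, 13 and 12 times. By that count the members after the anchor were nearly alike. The transcripts that lead other groups of discrete measurements in the table, ENSMUST00000072818, ENSMUST00000087657, ENSMUST00000032373, ENSMUST00000019063 and ENSMUST00000085102, were little correlated with the 8. The highest absolute rho in those 40 pairs was 0.206.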

How the data were processed

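Kidney RNA of 173 F2 males was hybridised to Affymetrix arrays, 1 per animal. The authors deposited log2 values, made with affy and RMA (background correction, quantile normalization and probe summary), per the submitters' processing notes; for versions, probe sets and annotation, the sources used here give nothing. Quantile normalization removes differences in total signal between animals. All 173 columns were used and none (0) was left out. The number of arrays limits the precision; the mouse numbers name separate animals.

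The members, lists and thresholds were chosen with earlier results of these data known. Class levels were fitted by expectation-maximisation as 3 Gaussian classes (shares 1:2:1, common SD), and SEs come from leaving out each of the 173 animals in turn. The fit was repeated for all distinct measurements and compared by BIC with Gaussian, skew-normal and Student t distributions, with a call at a lead above 10 for measurements with a mean above the median. The class models and the fractions were also run on simulated data. The simulated classes were evenly spaced with a common SD, unlike those of the anchor, and nothing is read from those runs here. Named transcripts are the 8 listed, the 5 distinct measurements outside the list with the highest absolute Spearman correlation with ENSMUST00000030480, and the nearest one to each member; ENSMUST00000106538, ENSMUST00000105799 and the lead transcripts of other groups were named after their values were seen. The fractions assume that each transcript follows 1 locus. Python 3.11.15, numpy 2.4.6, scipy 1.17.1, pandas 2.3.3 and matplotlib 3.10.9 were used.

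Alternatives were Pearson correlation, arrays quantile-normalized again, the first 5 components removed, 5 arrays or 2 animals left out, free class shares, an SD for each class, a posterior minimum of 0.95, counts of assigned classes, a BIC lead of 20 and no filter on low values. A chain likelihood for the order and the removal of a trend over mouse numbers were chosen after seeing the data.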

Additional observations from a re-analysis of the deposited data

How the results depend on the processing

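Of 20 medians over the transcripts recomputed under an alternative, 19 differed from the reported median by no more than the median half-width of the transcripts' 95% intervals. The exception was the median absolute correlation with ENSMUST00000030480, 0.456 as reported and 0.269 with the first 5 principal components removed; the cause was not tested. With those components removed, the middle and high levels coincided in ENSMUST00000030480 (10.63 and 10.64) and in ENSMUST00000039204 (8.35 for both). Nothing is therefore read from fractions that stayed near their reported value in that setting. Of 144 values for single transcripts, 137 stayed within their 95% intervals, 7 did not, and none (0) changed sign. The 7 were Pearson's r for ENSMUST00000106268 (-0.68); the correlations of ENSMUST00000106268 (-0.61), ENSMUST00000039204 (-0.40) and ENSMUST00000101655 (-0.27) and the fractions of ENSMUST00000106268 (lower bound) and ENSMUST00000074829 (7.36%) with components removed; and the outer distance of ENSMUST00000030480 (3.73) with an SD for each class. The order of the transcripts was the same by absolute correlation with ENSMUST00000030480 and by the shortest path through the shares of differing animals of all pairs. It had 25 of 28 pairs in the same order under the chain likelihood. The shares against ENSMUST00000030480 alone exchanged ENSMUST00000105586 (54.9%) and ENSMUST00000030942 (52.6%). The number of discrete calls was 211 as reported, 151 at a BIC lead of 20 and 238 without the filter. By Pearson correlation, 4 of the 5 outside measurements nearest to ENSMUST00000030480 were among the first 5. The number of animals limits the intervals of the fractions, and the overlap of classes limits how surely a single animal is placed. No paired analysis was possible because all animals formed 1 group.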
